A study of Mus musculus with 6 samples.

Results

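Alternative activation is the state that macrophages enter when IL-4 or IL-13 binds a receptor containing the chain encoded by Il4ra. The receptor activates the transcription factor STAT6, which acts with partners such as IRF4 on a set of target genes. In mice these targets include the secreted proteins Retnla and Chil3, the galactose-binding lectins Clec10a and Mgl2, the beta-glucan receptor Clec7a and the chemokines Ccl17, Ccl22 and Ccl24. The same genes are widely used to call tumour macrophages alternatively activated. These 10 genes were taken by symbol from a deposited table of 53647 genes, and each symbol stood on 1 row.

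RNA was sequenced from macrophages of pancreatic ductal adenocarcinomas grown orthotopically, that is in the pancreas itself, in C57BL/6 mice. Sorting on Cxcr4, a chemokine receptor whose ligand is Cxcl12, gave 3 Cxcr4+ and 3 Cxcr4- libraries. Every library came from a tumour of this model, no library came from a mouse without a tumour, and the group names describe a sorted state and not an allele. The sources used here give neither the age and sex of the mice, the tumour line and the sorting gate nor whether replicates stem from different animals. The p-values therefore measure only the spread between these libraries, which may be technical.

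The libraries held 46444934 to 55740671 estimated counts, and each Cxcr4+ library held more than any Cxcr4- library. Macrophage transcripts were abundant in both groups, with the lysosomal protein Cd68 at 1173 ± 72.0 FPKM (SD, n = 3) in Cxcr4+ and 1057 ± 45.1 (n = 3) in Cxcr4- libraries and Adgre1, which encodes F4/80, at 19.6 ± 2.55 and 21.2 ± 2.06. FPKM is the deposited level, scaled for gene length and sequencing depth. The complement genes C1qa, C1qb and C1qc, usually strong in tissue macrophages, had at most 29, 84 and 76 counts in a library. These maxima fell in Cxcr4+ libraries, and Cxcr4- libraries had at most 8, 4 and 4. The log2 fold changes of C1qa and C1qb were 2.49 (SE 0.98) and 3.75 (SE 1.08), with edgeR adjusted p = 0.998 and 0.953. C1qc did not pass the filter on low counts. Of 11 tested macrophage markers 7 were positive, 4 negative and 0 called. Cxcr4 RNA itself was 9.27 ± 0.285 FPKM in Cxcr4+ and 7.42 ± 1.32 in Cxcr4- libraries (log2 fold change 0.27 ± 0.19 SE, edgeR adjusted p = 0.999). The summed level of 10 epithelial markers was 1.84 to 3.38 FPKM in Cxcr4+ and 3.60 to 6.34 in Cxcr4- libraries, and that of 10 mitochondrial transcripts 49520 to 56626 and 42718 to 47198. The sum of 11 fibroblast markers was 3.55 to 17.4 FPKM in Cxcr4+ and 2.37 to 3.31 in Cxcr4- libraries, with 8 of 9 tested markers positive, a median log2 fold change of 1.53 and 0 called. These 3 sums did not overlap between the groups. Their part in the differences given below was not tested. Of 8 T and NK cell markers 4 were at 0 in every library and the sum stayed at or under 0.102 FPKM, and of 8 mast cell and basophil markers 5 were at 0 and the sum stayed at or under 0.235. These are bulk libraries, in which fewer cells of a type and less RNA per cell cannot be told apart.

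STAT6 binds a palindrome of TTC and GAA with 4 free bases between them, and other STAT factors prefer 3. The RefSeq promoter table (GRCm38.p6; 250 bases before to 50 bases after each gene start) held 8 of the 10 genes, all but Clec10a and Ccl24. TTC and GAA with 4 free bases between them were found in 3 of these 8 genes, Retnla, Ccl17 and Clec7a, and in 8.01% of the 27025 genes of the table. TTC and GAA with 3 free bases between them were found in 2 of the 8, Chil3 and Ccl17, and in 9.55% of all genes. Both patterns read the same on either strand, and no match of one overlapped a match of the other in these genes. The stretches below begin 200 bases before the gene start and run for 100 bases, 5′ to 3′ on the gene's strand, with the matched letters in capitals. They are shown because these 4 genes carry a match and yet differ widely in level. A match is a description of the letters and not a measured binding site.
Retnla, chr16:48842409-48842508, forward strand: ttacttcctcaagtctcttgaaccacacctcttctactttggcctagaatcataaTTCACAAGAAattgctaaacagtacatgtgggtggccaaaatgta
Ccl17, chr8:94810253-94810352, forward strand: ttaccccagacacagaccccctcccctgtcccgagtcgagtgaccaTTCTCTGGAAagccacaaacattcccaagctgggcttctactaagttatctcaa
Clec7a, chr6:129472880-129472979, reverse strand: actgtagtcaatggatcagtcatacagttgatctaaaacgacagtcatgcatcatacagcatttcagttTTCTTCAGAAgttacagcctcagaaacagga
Chil3, chr3:106167665-106167764, reverse strand: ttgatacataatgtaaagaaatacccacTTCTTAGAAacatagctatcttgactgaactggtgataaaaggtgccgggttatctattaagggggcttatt
The STAT6-type match began 145 bases before the start of Retnla, 154 before that of Ccl17 and 131 before that of Clec7a. The second pattern began 172 bases before the start of Chil3 and, outside the stretch shown, 99 before that of Ccl17. Retnla was listed at 0 in every library, Ccl17 had at most 6 counts and Clec7a at most 42, while Chil3 had 229 to 446.

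Detection split the 10 genes into those present throughout and those at or near 0. Clec10a, Chil3, Il4ra and Irf4 had over 100 counts in each of the 6 libraries. Clec7a and Ccl22 were above 0 in all 6 but with 4 to 42 and 8 to 27 counts. Ccl17 was above 0 in 2 libraries, and Retnla, Mgl2 and Ccl24 were listed at 0 in all 6. A low deposited count can stand for fewer fragments than it says, so 3 fragments, or 12 counts, were taken as the floor per library, which allows up to 0.215 to 0.258 CPM, counts scaled to library size, for a gene at 0. The floor covers counting error only. As a check on well-expressed genes, 0 of 72 cytosolic ribosomal protein genes, which all cells use, had a 0 in any library. Their lowest count was 66, so the check does not tell what a 0 means for a gene of low level. S100a9, for example, was at 0 in every library while S100a8 had 202 to 351 counts, and the reason was not tested.

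**Figure D1:**
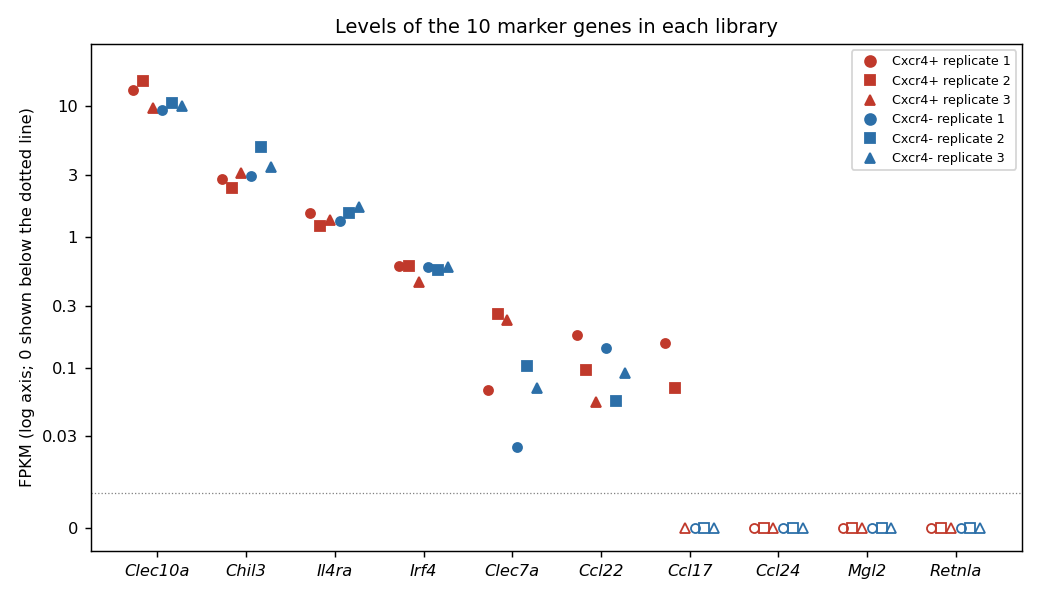
Level of each of the 10 genes in FPKM, on a log axis with 0 drawn below the dotted line. Each point is 1 library, red for Cxcr4+ and blue for Cxcr4-, and the shape gives the replicate number. Clec10a stands highest, at 9.39 to 15.6 FPKM, and the open points at 0 are those of Ccl17 in 4 libraries and of Ccl24, Mgl2 and Retnla in all 6.

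Per length, Clec10a stood first over the 6 libraries, at 11.5 ± 2.46 FPKM (SD, n = 6), followed by Chil3 at 3.24 ± 0.875, Il4ra at 1.45 ± 0.175 and Irf4 at 0.569 ± 0.0584. The values of these 4 neighbours did not overlap from one gene to the next in any library. Clec7a at 0.126 ± 0.0962 and Ccl22 at 0.104 ± 0.0491 overlapped and did not differ beyond their spread, and neither did Ccl22 and Ccl17, at 0.0377 ± 0.0643. Among the 16031 genes with enough counts to be tested, whose median was 3.09 FPKM, Clec10a lay at percentile 78.1, Chil3 at 51.0, Il4ra at 36 and Irf4 at 23.6. Most of the set was therefore below the middle of the expressed genes.

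No gene of the set differed between Cxcr4+ and Cxcr4- macrophages at an adjusted p under 0.05. The test was edgeR's quasi-likelihood test over the whole table with Benjamini-Hochberg adjustment. It called 5 of 16031 genes (0.0312%), 2 higher (0.0125%) and 3 lower (0.0187%) in Cxcr4+ libraries. Of the 10 genes, 6 passed the filter on low counts and 0 of these were called. At an unadjusted p under 0.05 there was 1, Clec10a, against 4.85% of all tested genes, and DESeq2 and limma-trend called 0. The groups overlapped for each of the 6, while 10.4% of the tested genes had groups without overlap. The median log2 fold change of the 6 was 0.04, with 3 positive and 3 negative, beside 0.00041 over all tested genes.

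**Figure D2:**
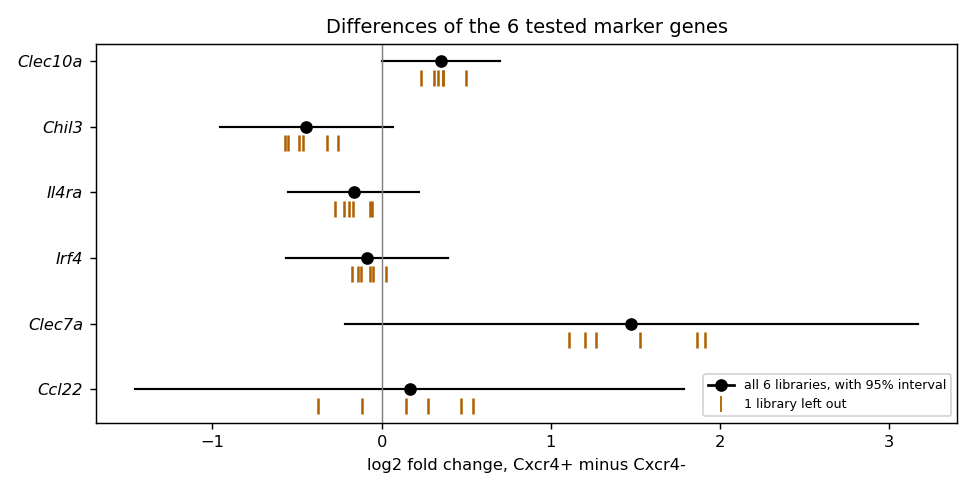
log2 fold change, Cxcr4+ minus Cxcr4-, of the 6 tested genes. Black points and lines give the edgeR value over all 6 libraries with its 95% interval, and orange ticks give the value with 1 library left out. Clec10a lies to the right of 0 at 0.35 and Chil3 to the left at -0.44, and the intervals of Clec7a (-0.22 to 3.17) and Ccl22 (-1.46 to 1.79) are the widest.

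The receptor chain Il4ra (chromosome 7, 125151292 to 125178646, forward strand, in GRCm39, the build of all gene positions here) was present at a low level in both groups. It had 1.53, 1.22 and 1.348 FPKM in Cxcr4+ replicates 1 to 3 and 1.34, 1.54 and 1.70 in Cxcr4- replicates 1 to 3. The ranges overlapped over most of their width. The log2 fold change was -0.17 (SE 0.17, 95% interval -0.55 to 0.22, edgeR adjusted p = 0.9997). Leaving out 1 library kept it negative but moved it to -0.059 without Cxcr4+ replicate 2, -0.072 without Cxcr4- replicate 3 and -0.27 without Cxcr4+ replicate 1. These data leave room for a fall of Il4ra by 0.55 or a rise of 0.22 on the log2 scale.

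Irf4, the transcription factor that acts with STAT6 in alternative activation and also marks lymphoid cells, varied least over the 6 libraries among the detected genes, with an SD of 10.3% of its mean. It had 0.604, 0.605 and 0.453 FPKM in the Cxcr4+ and 0.590, 0.565 and 0.594 in the Cxcr4- libraries. All but Cxcr4+ replicate 3 lay close together, and that library was the lowest of the 6. The log2 fold change was -0.09 (SE 0.21, 95% interval -0.57 to 0.39, edgeR adjusted p = 0.9997), and without Cxcr4+ replicate 3 it was 0.024. Irf4 lies on chromosome 13 at 30933209 to 30950959, forward strand. B and plasma cells also express Irf4. Their markers Ms4a1 and Pax5 each had at most 4 counts in a library, Cd79b at most 8, Cd79a 12 to 53 and Jchain 12 to 38. Ighm was at 33.4 ± 2.60 against 34.8 ± 0.373 FPKM and Sdc1, a plasma cell marker that epithelial cells also express, at 5.24 ± 0.629 against 4.41 ± 0.553. Their part in the Irf4 values was not tested.

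Clec10a, a lectin that binds terminal galactose and N-acetylgalactosamine, was the most abundant gene of the set. It had 13.3, 15.6 and 9.80 FPKM in the Cxcr4+ libraries and 9.39, 10.7 and 9.998 in the Cxcr4- libraries. Cxcr4+ replicates 1 and 2 lay above all Cxcr4- libraries, and Cxcr4+ replicate 3 lay within the Cxcr4- range. The ratio of means was 1.29 and the log2 fold change 0.35 (SE 0.15, 95% interval 0.0039 to 0.70, unadjusted p = 0.0481, adjusted p = 0.999 by edgeR), so the difference did not pass. Leaving out Cxcr4+ replicate 2 gave 0.23 and leaving out Cxcr4+ replicate 3 gave 0.50, and the value was positive in all 6 fits that left out 1 library.

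Mgl2, the second mouse lectin of this kind, was listed at 0 counts in all 6 libraries although it lies beside Clec10a. Mgl2 spans 70021155 to 70028376 and Clec10a 70047023 to 70061660 on the forward strand of chromosome 11, with 18.6 kb between them. The longest coding transcripts of the pair (GENCODE M21) were 89.0% identical over 858 aligned positions. Of the 50-base windows of the Mgl2 transcript, 16.5% also occurred in Clec10a transcripts, and 5.92% of its 100-base windows did. Of the Clec10a windows, 10.6% and 4.08% occurred in Mgl2. The sources used here do not say how the counting treated fragments that match both genes, so the shared stretches are uncertain, but most of either transcript is its own.

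Dendritic cells also express Clec10a, Mgl2, Irf4, Ccl17 and Ccl22. Of 12 dendritic cell markers, Cd209a, Ccr7 and Siglech were at 0 in every library, Flt3 had at most 4 counts, and 2 passed the filter. The summed level of the 12 was 0.140 to 0.965 FPKM in Cxcr4+ and 0.275 to 0.432 in Cxcr4- libraries. In each library this sum lay below the level of Clec10a and above those of Ccl22 and Ccl17. It lay above that of Irf4 only in Cxcr4+ replicate 1, where the marker Fscn1 alone made 0.753 of the 0.965 FPKM. Such a sum does not measure how much RNA of another gene dendritic cells supplied. Their part in the values of these genes was not tested.

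Clec7a encodes Dectin-1, the receptor that recognises fungal beta-glucan. It had 12, 42 and 37 counts in the Cxcr4+ and 4, 16 and 10 in the Cxcr4- libraries, or 0.0678, 0.258 and 0.233 against 0.0251, 0.104 and 0.0699 FPKM. Cxcr4+ replicates 2 and 3 stood above the other 4 libraries, while Cxcr4+ replicate 1 was at the floor and below Cxcr4- replicates 2 and 3 in FPKM. The log2 fold change was 1.48 (SE 0.73, 95% interval -0.22 to 3.17, adjusted p = 0.999 by edgeR), the largest of the set by size and one that rests on few fragments. It ran from 1.11 to 1.91 when 1 library was left out, and was 0.15 in limma-trend on log2(FPKM + 1), a scale that compresses low genes. Clec7a spans 129438554 to 129449742 on chromosome 6, reverse strand, and the table classes its transcripts as protein coding, retained intron and polymorphic pseudogene.

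Most of the pathway below Dectin-1 was well expressed, in contrast to the receptor. Malt1 at 1.51 and Src at 0.231 FPKM over the 6 libraries lay below the median of the tested genes. All 9 listed signalling genes were tested, with a median level of 20.2 FPKM, 3 positive and 6 negative log2 fold changes and 0 called. The kinase Prkcd had 47.4 ± 3.82 against 55.1 ± 5.54 FPKM, the adaptor Card9 34.6 ± 4.93 against 38.7 ± 5.81, the exchange factor Vav1 26.6 ± 1.46 against 27.3 ± 0.796 and the phospholipase Plcg2 23.8 ± 1.54 against 23.8 ± 1.49. The summed level of all 9 was 173 to 176 FPKM in Cxcr4+ and 184 to 190 in Cxcr4- libraries, without overlap. Taken singly, 0 of the 9 genes had groups without overlap, beside 10.4% of all tested genes. No such share is at hand for sums, and genes of high level weigh most in them. Other C-type lectins ranged from near 0 to far above Clec7a. Clec4n was at 0.247 and Clec2d at 0.206 FPKM over the 6 libraries, and Asgr1 and Asgr2 had at most 4 and 10 counts. Clec4d, a receptor for microbial glycolipids, was at 162 ± 29.9 FPKM and Clec4e, its partner, at 27.3 ± 2.75 (n = 6), and neither was called, with log2 fold changes of 0.04 (SE 0.15) and 0.09 (SE 0.14).

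Retnla, the resistin-like protein that is among the most strongly IL-4-induced genes of mouse macrophages, was listed at 0 in all 6 libraries. Of the 50-base windows of its transcript, 0% occurred in another gene. It lies on chromosome 16 at 48662914 to 48664824, forward strand. Its relative Retnlb had up to 15 counts in 1 library and Retnlg up to 4 in 1 library, while Retn, the resistin gene, was at 1.13 ± 0.262 against 1.59 ± 0.476 FPKM (log2 fold change -0.51 ± 0.31 SE, edgeR adjusted p = 0.999).

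Chil3 encodes a secreted chitinase-like protein and was the second most abundant gene of the set. It had 2.77, 2.37 and 3.07 FPKM in the Cxcr4+ and 2.93, 4.88 and 3.45 in the Cxcr4- libraries. Cxcr4- replicate 2 was the highest of the 6 and Cxcr4+ replicate 2 the lowest, and the groups overlapped because Cxcr4+ replicate 3 lay above Cxcr4- replicate 1. The log2 fold change was -0.44 (SE 0.22, 95% interval -0.96 to 0.066, adjusted p = 0.999 by edgeR). Leaving out Cxcr4- replicate 2 gave -0.26 and leaving out Cxcr4- replicate 1 gave -0.57, and it was negative whichever library was left out.

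Chil3 is also made by neutrophils and monocytes. The summed level of 12 neutrophil markers was 6.66 to 9.34 FPKM in Cxcr4+ and 7.15 to 10.2 in Cxcr4- libraries, and that of 10 monocyte markers 66.0 to 74.6 and 72.7 to 86.9. Cxcr4- replicate 2, the library with the most Chil3, had the highest sum of both lists. Their part in the Chil3 values was not tested. S100a9, Camp and Ngp of the neutrophil list were at 0 in every library, and S100a8 was at 6.02 ± 1.73 against 7.12 ± 1.37 FPKM. The chemokine receptor Cxcr2 was at 0.155 ± 0.0878 against 0.493 ± 0.307 FPKM (log2 fold change -1.66 ± 0.58 SE, edgeR adjusted p = 0.998), with its highest value, 0.847, in Cxcr4- replicate 2. Its groups did not overlap, which held for 1 of the 3 tested neutrophil markers and for 10.4% of all tested genes. Of the monocyte list, Hp, which encodes haptoglobin, was at 11.6 ± 1.51 against 21.7 ± 2.65 FPKM (edgeR adjusted p = 0.332).

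Chil3 spans 106054870 to 106074880 on chromosome 3, reverse strand. Its paralogue Chil4 had 1 count in 1 library. Their transcripts were 94.3% identical, and 29.4% of the 50-base windows and 5.42% of the 100-base windows of Chil3 also occurred in Chil4, so fragments from these stretches could be assigned to either.

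The chemokines of the set were at or near 0 in every library. Ccl22, which attracts Ccr4-bearing T cells, had 27, 14 and 8 counts in the Cxcr4+ and 19, 8 and 12 in the Cxcr4- libraries, so that 3 of the 6 libraries were at or under the floor. The FPKM values were 0.179, 0.0964 and 0.0549 against 0.142, 0.0561 and 0.0922. The replicates numbered 1 were the highest of each group, and the groups overlapped almost fully. The log2 fold change was 0.17 (SE 0.70, 95% interval -1.46 to 1.79, edgeR adjusted p = 0.9997), and it fell below 0 when Cxcr4+ replicate 1 (-0.38) or Cxcr4- replicate 2 (-0.12) was left out.

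Ccl17, which shares the receptor Ccr4, had 6 and 3 counts in Cxcr4+ replicates 1 and 2 and 0 in the other 4 libraries. All of these values lie under the floor, so no fold change is given. Ccl22 and Ccl17 lie 58.8 kb apart on the forward strand of chromosome 8, at 95472218 to 95478327 and 95537081 to 95538664. Cxcr4+ replicate 1, the library with the most Ccl22 and Ccl17, also had the highest sum of the dendritic cell markers, 0.965 FPKM, of which Fscn1, an actin-bundling protein, made 0.753. It had 17.4 FPKM of the fibroblast markers as well, while Cxcr4+ replicates 2 and 3 had 3.55 and 4.26, also above every Cxcr4- library (2.37 to 3.31). Their part in these counts was not tested.

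Ccl24, which attracts eosinophils through Ccr3, was listed at 0 in all 6 libraries. The gene spans 135598791 to 135601903 on chromosome 5, reverse strand, and 0% of its 50-base windows occurred in another gene. The receptors were near 0 as well, as Ccr3 had 0 counts throughout, Ccr4 at most 4 and the atypical receptor Ackr2 at most 8. Of 10 eosinophil markers 8 were at 0 in every library, with only Prg2 (11 to 45 counts) and Alox15 (up to 3 counts) above it.

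**Figure D3:**
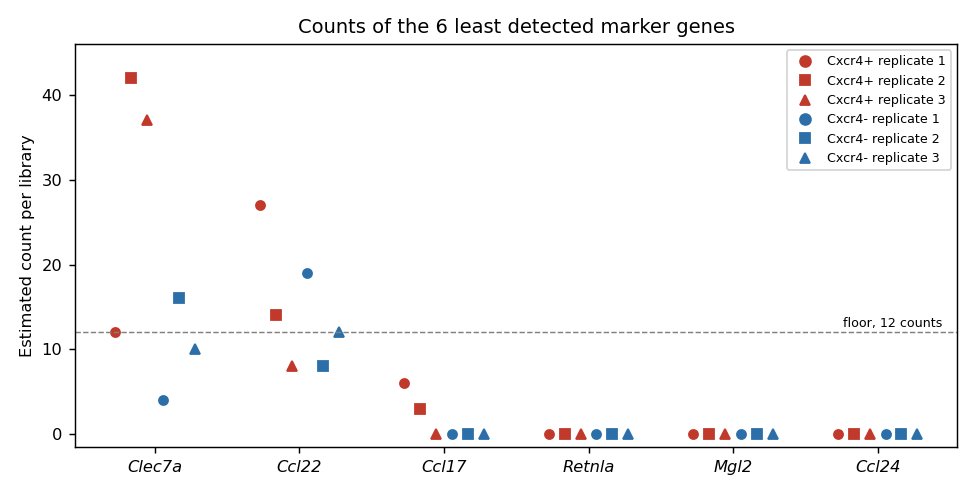
Estimated counts of the 6 least detected genes in each library, with the floor of 12 counts as a dashed line. Red points are Cxcr4+ and blue points Cxcr4- libraries. Only Clec7a and Ccl22 have libraries above the floor, up to 42 and 27 counts, and Retnla, Mgl2 and Ccl24 lie at 0 throughout.

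Most of the listed genes that carry the IL-4 signal were detected in these libraries, and the ligands were scarcely detected. The list of ligands, receptors, kinases and their regulators had 13 genes, of which 10 were tested, 4 positive, 6 negative and 0 called. Il13 was at 0 in every library, Il4 had 5 to 25 counts and the adaptor gene Irs2 at most 8. RNA of sorted macrophages does not tell how much ligand other cells of the tumour made. The common receptor chain Il2rg was at 49.0 ± 1.86 against 45.6 ± 2.32 FPKM, Stat6 at 18.2 ± 2.25 against 17.3 ± 1.60 and the kinase Jak1 at 17.3 ± 0.794 against 17.6 ± 0.235. The phosphatase Ptpn6, a brake on the pathway, was highest of the list at 78.8 ± 9.80 FPKM (n = 6). Il13ra1, which pairs with Il4ra in the second receptor type, was at 2.69 ± 0.206 against 2.19 ± 0.165 FPKM (log2 fold change 0.30 ± 0.15 SE, edgeR adjusted p = 0.999). Its groups did not overlap, which held for 1 of the 10 tested genes of the list and for 10.4% of all tested genes.

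Transcription factors and chromatin enzymes of the IL-4 response were also present. Of 12 listed genes 10 were tested, 3 positive, 7 negative and 0 called, with a median log2 fold change of -0.10. Cebpb, a regulator of Arg1, was at 80.5 ± 26.9 against 80.3 ± 21.7 FPKM, Nfil3 at 23.7 ± 2.83 against 27.8 ± 0.754, the NF-kappaB subunit Rela at 14.97 ± 1.16 against 15.9 ± 0.815 and Klf4, a partner of STAT6, at 5.20 ± 1.59 against 5.02 ± 1.15. Nfil3 and the coactivator Ppargc1b (3.13 ± 0.455 against 3.82 ± 0.0908) were lower in every Cxcr4+ library than in any Cxcr4- library. This held for 2 of the 10 tested genes of the list and for 4.87% of all tested genes. Their log2 fold changes were -0.24 (SE 0.13) and -0.29 (SE 0.15), both with edgeR adjusted p = 0.999. The nuclear receptor Pparg, by contrast, had at most 13 counts. Among relatives of Irf4, Irf5, which drives the inflammatory state, was at 21.2 ± 3.77 FPKM and Irf8 at 6.19 ± 1.72 (n = 6), both above Irf4 in every library.

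The other IL-4-induced genes resembled the 10 markers in being mostly near 0. Of 18 listed genes 17 were in the table, 3 of them (Cd209a, Cd209b and Cd163) at 0 in every library, and 8 were tested, with 2 positive, 6 negative and 0 called. The median level of the 17 was 0.0364 FPKM and the median log2 fold change of the 8 was -0.36. Arg1, the arginase of alternatively activated macrophages, had at most 14 counts and Mrc1, the mannose receptor, at most 35. Nos2, the inducible nitric oxide synthase linked to the opposite state, was at 62.6 ± 2.33 against 63.8 ± 3.65 FPKM. It stands outside the lists, and 1 gene does not give the activation state of these cells. The highest of the list were Ptgs1, cyclooxygenase 1, at 6.51 ± 0.974 against 8.53 ± 1.66 FPKM (log2 fold change -0.39 ± 0.14 SE, edgeR adjusted p = 0.998), and transglutaminase Tgm2 at 4.32 ± 1.08 against 5.87 ± 0.0637 (-0.44 ± 0.21 SE, edgeR adjusted p = 0.999). Tgm2 was lower in every Cxcr4+ library than in any Cxcr4- library, as were 4.87% of all tested genes. Fibronectin, Fn1, was at 4.47, 0.466 and 1.12 FPKM in the Cxcr4+ and 0.223, 0.579 and 1.07 in the Cxcr4- libraries, and its highest value fell in Cxcr4+ replicate 1, where the fibroblast markers were also highest. Cish, an inhibitor of cytokine signalling, was at 0.542 ± 0.229 against 0.702 ± 0.166 FPKM.

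**Figure D4:**
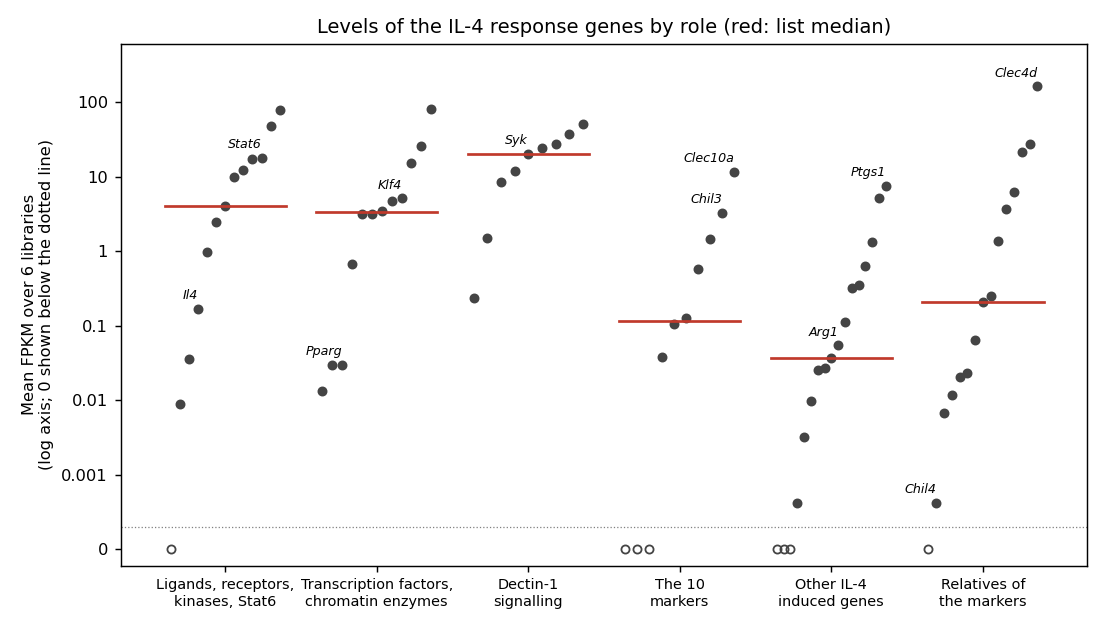
Mean FPKM over the 6 libraries for the genes of 6 lists, on a log axis with 0 drawn below the dotted line. Each point is 1 gene and the red line is the median of its list. The medians are 3.96 for ligands, receptors and kinases, 3.32 for transcription factors, 20.2 for Dectin-1 signalling, 0.115 for the 10 markers, 0.0364 for other IL-4-induced genes and 0.206 for relatives of the markers.

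Over all lists of the pathway, 45 of the 68 genes in the table were tested, 17 positive and 28 negative, with a median log2 fold change of -0.04 beside 0.00041 over all tested genes. At an adjusted p under 0.05 by edgeR 0 were called, and 1, Ptgs1, had an unadjusted p under 0.05. DESeq2 and limma-trend also called 0. The groups did not overlap for 1 gene that was higher and 3 that were lower in Cxcr4+ libraries, beside 5.50% and 4.87% of all tested genes.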

How the data were processed

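The authors deposited 1 table with estimated counts and FPKM per gene for 6 libraries, per the file headers. Per the submitters' processing notes, the tools were cutadapt, HISAT2 and StringTie and the build GRCm39. Not given in the sources used here were versions, annotation release, strand and counting settings. The deposited expected (estimated) counts were whole, and rounding changed 0 of them. Of the counts from 1 to 20, 43.2% were multiples of 4, where an even spread gives 25%. The deposited FPKM stands at 0.0001 wherever the count is 0, which was read as 0.

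The 10 genes and all lists were chosen with earlier results of these data known. Genes were kept by filterByExpr at a minimum count of 10 and a minimum total of 15, which left 16031, and scaled by TMM. A quasi-likelihood model with group as its sole term was then fitted in edgeR 4.0.16 (R 4.3.3, legacy dispersions), with Benjamini-Hochberg adjustment over those genes. Standard errors are the fold change's size on the log2 scale over the root of F. The biological coefficient of variation was 0.275. The procedure was also run on simulated data. The outcome is not given here, so the power to call a difference is not stated. The text names all 10 genes, up to 4 genes of highest mean per pathway list and any called. It also names genes chosen after their values were seen (markers, ligands, genes low or near 0 and genes whose groups did not overlap). Cxcr4 and Nos2 are named too, though they are on no list. DESeq2 1.42.0, limma 3.58.1, other scalings, filters and pseudocounts, a replicate block and leaving out each library were alternatives. Windows shared between transcripts came from GENCODE M21 sequences, without coordinates, and identity from Biopython 1.88. Figures used matplotlib 3.10.9.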

Additional observations from a re-analysis of the deposited data

How the results depend on the processing

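None of the 10 genes and none of the pathway genes was called under any of the 20 alternatives run. The single log2 fold changes kept their direction in 107 of 110 comparisons with an alternative, most of which refitted the same 6 libraries. The 3 that did not were all among the fits that left out 1 library. They were Ccl22 without Cxcr4+ replicate 1 (-0.38) and without Cxcr4- replicate 2 (-0.12) and Irf4 without Cxcr4+ replicate 3 (0.024). With 1 library left out, Ccl22 ranged from -0.38 to 0.54 and Irf4 from -0.17 to 0.024. The count of genes called over the whole table, 5, was 65 in DESeq2 (28 higher, 37 lower), 2 in limma-trend on log2(FPKM + 1), 1 with a pseudocount of 5 and 1 to 9 with 1 library left out, with 9 without Cxcr4+ replicate 2. The median over the tested genes of the set, 0.04, was 0.16 with no filter, which adds Ccl17, and -0.13 with a minimum count of 50 and -0.12 with counts divided by 4, which test 4 genes. It ran from -0.22, without Cxcr4+ replicate 1, to 0.25, without Cxcr4+ replicate 3, so its sign is not fixed by these libraries. Fitting the replicate number as a block left 0 genes called. Genes with an unadjusted p under 0.05 in edgeR, however, rose from 777 to 1495. They rose to 1485 with the libraries numbered 2 as a block. Libraries of the same number deviated together with correlations of 0.038, 0.14 and 0.045, and that of number 2 was the highest between any Cxcr4+ and Cxcr4- library. Cxcr4+ replicate 1 correlated more with Cxcr4- replicate 3 (0.052) than with its own number. The main fit did not take the numbers as pairs, but these values do not settle whether libraries of 1 number share a source. With 3 libraries per group, depth limits what can be said of Clec7a, Ccl22 and Ccl17, whose counts lie near or under the floor. The causes were not tested.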
